A study of Mus musculus with 8 samples.

Results

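Fibroblasts sorted from Lewis lung carcinomas were set against whole tumors of the same model, to ask which stromal genes a profile of the whole tumor shows and which it hides. Lewis lung carcinoma (LLC) is a mouse lung carcinoma cell line. Here the injected cells carried the red fluorescent protein dTomato, were kept under G418 selection, and formed tumors under the skin of both flanks of transgenic Col1a1-GFP mice, in which a green fluorescent protein transgene named for the collagen gene Col1a1 marks collagen-producing cells. The comparison used 4 of the 8 libraries of the series: Fibroblast (GFP-positive sorted cells, replicates 1 and 2) and Total tumor (whole tumor, replicates 1 and 2). Sorted dTomato-positive cells (LLC) and M2 tumor-associated macrophages (TAM, F4/80-positive, collagen-positive cells with neither dTomato nor GFP) had 2 libraries each. They gave the level of a gene in other sorted cells. Whether a sorted library also held RNA of other cell types was not tested. The LLC and TAM libraries also entered the filter on low values, the choice of transcript and the spread that the test used. All sorted groups came from tumors injected with fluorescent collagen 24 h before the cells were dissociated. The Total tumor libraries are listed with the same 24 h of collagen. The labels name neither the length of the transgene's promoter, nor the strain, sex or age of the mice, nor how the RNA of the whole tumors was taken. Nor do they say whether both libraries of a group stem from different mice, or whether Fibroblast and Total tumor libraries share a tumor. A p-value here therefore reflects nothing more than how far the 8 libraries spread within their groups, and that spread may be technical. Because the gate selected GFP made with Col1a1, a high Col1a1 level in Fibroblast was partly set by the sort.

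Fibroblasts make and remodel the extracellular matrix. They secrete fibrillar collagens as procollagens, which are hydroxylated in the endoplasmic reticulum, trimmed outside the cell and cross-linked by lysyl oxidases, and they add elastic microfibrils, proteoglycans and matricellular proteins. In skin and fat they also secrete complement proteins, chemokines and antagonists of the Wnt and BMP pathways. In a whole tumor their transcripts are diluted by those of carcinoma cells and leukocytes, so a stromal gene can be lost to view in either of 2 ways: its level can sink towards the detection limit, or another cell type can express it as well.

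The values were the deposited RPKM (reads per kilobase of transcript per 1e6 reads), which correct for transcript length. The estimated depth followed the replicate number. It lay between 8.54 and 10.37 M reads in the replicate 1 libraries and between 4.28 and 4.72 M reads in the replicate 2 libraries. At these depths 3 reads on a 2 kb transcript correspond to between 0.145 and 0.35 RPKM. Total tumor 2 stood apart: its level depended on transcript length, with a median deviation from the gene means of 0.889 (log2) for transcripts under 1 kb and -0.253 for those over 4 kb, and its summed RPKM was the highest of the series. Over the 13311 genes tested, the median log2 difference of Fibroblast minus Total tumor was -0.51, and it was -0.01 after upper-quartile rescaling, and each list median below is expressed as its distance from -0.51. Of the 10 fibroblast markers, all 10 were highest in both Fibroblast libraries. C3, Igfbp5 and Sfrp4 exceeded 300 RPKM in each, as did all the others but Pdgfra. These markers were chosen with earlier results of these data known, and the sort reporter carries the name of Col1a1.

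Promoter sequences of 5 genes that carry the comparison are given for reference: the 3 with the largest differences (C3, Igfbp5 and Cxcl13) and 2 collagen genes that rank among the most abundant transcripts of the sorted cells (Col1a2 and Col3a1). Each is the 250 bases before the RefSeq start on the GRCm38.p6 build, written 5′ to 3′ on the strand of the gene. Capitals mark matches to the motifs searched on both strands: the TATA box core TATAAA, the box written CCAAT, the AP-1 element TGACTCA and the GC box GGGCGG. Their intervals are chr17:57228137-57228386 (minus strand) for C3, chr1:72874866-72875115 (minus) for Igfbp5, chr5:95956689-95956938 (plus) for Cxcl13, chr6:4505368-4505617 (plus) for Col1a2 and chr1:45311288-45311537 (plus) for Col3a1.
C3: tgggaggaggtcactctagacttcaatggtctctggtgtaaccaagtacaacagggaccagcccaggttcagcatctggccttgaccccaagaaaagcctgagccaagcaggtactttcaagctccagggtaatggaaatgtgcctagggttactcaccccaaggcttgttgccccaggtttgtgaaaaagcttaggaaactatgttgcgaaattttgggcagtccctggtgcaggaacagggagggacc
Igfbp5: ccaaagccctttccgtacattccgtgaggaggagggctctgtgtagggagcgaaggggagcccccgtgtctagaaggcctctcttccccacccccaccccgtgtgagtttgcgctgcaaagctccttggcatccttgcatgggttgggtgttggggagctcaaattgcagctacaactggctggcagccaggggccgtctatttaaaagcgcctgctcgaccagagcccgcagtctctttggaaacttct
Cxcl13: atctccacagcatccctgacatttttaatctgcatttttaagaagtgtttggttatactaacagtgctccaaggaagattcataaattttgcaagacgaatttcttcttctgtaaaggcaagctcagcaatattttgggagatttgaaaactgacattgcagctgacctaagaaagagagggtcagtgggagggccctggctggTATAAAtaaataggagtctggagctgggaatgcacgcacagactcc
Col1a2: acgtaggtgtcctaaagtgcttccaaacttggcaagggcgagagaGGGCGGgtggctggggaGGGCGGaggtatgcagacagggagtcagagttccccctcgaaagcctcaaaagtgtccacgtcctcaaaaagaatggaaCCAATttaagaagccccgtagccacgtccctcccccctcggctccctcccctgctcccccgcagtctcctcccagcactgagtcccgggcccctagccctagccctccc
Col3a1: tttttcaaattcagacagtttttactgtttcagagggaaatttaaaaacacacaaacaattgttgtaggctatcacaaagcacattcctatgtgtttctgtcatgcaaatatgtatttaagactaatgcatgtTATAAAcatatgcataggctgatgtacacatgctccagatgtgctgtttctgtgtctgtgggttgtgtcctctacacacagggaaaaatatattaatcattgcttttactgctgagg
Cxcl13 holds TATAAA beginning 46 bases before the start, and Col3a1 holds it 117 bases before. Col1a2 holds CCAAT 109 bases before and GGGCGG 205 and 188 bases before. C3 and Igfbp5 hold none of the 4 motifs in this window. Of 32851 RefSeq promoters of the same length, 12.4% hold TATAAA and 33.8% hold CCAAT. The GC box is in 32.7% of them and the AP-1 element in 4.46%. Of 30 genes looked up, 19 had a promoter in the RefSeq table.

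Sorted fibroblasts differed from the whole tumor in 5601 genes by limma's test at an adjusted p under 0.05. Of the genes tested, 1613 (12.1%) were higher in Fibroblast and 3988 (30%) were lower. This split moved with the scaling: 28.8% of the calls were higher ones as deposited, 56.0% after upper-quartile rescaling (2243 higher and 1760 lower) and 47.9% after quantile normalization (2234 and 2428). The count of lower genes also rested on single libraries, at 1611 without Fibroblast 1 and 1264 without Fibroblast 2. Counts and medians of the gene lists below cover the members that passed the filter of 1 RPKM in 2 libraries. A member that passed it through Fibroblast alone had to be higher there, so these counts describe the genes tested, can be read beside the 12.1 and 30% of all genes, and support nothing further. In whole-tumor RNA, fewer cells of a type and less RNA per cell cannot be told apart.

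The largest difference belonged to C3 (NM_009778), the central component of the complement cascade. It stood at 2158 and 3348 RPKM in the Fibroblast libraries, against 88.7 and 20.4 RPKM in Total tumor (log2 difference 5.94, SE 0.83, adjusted p = 0.00174). Igfbp5, which binds insulin-like growth factors, had 323 and 343 RPKM in Fibroblast and 11.9 and 1.99 RPKM in Total tumor (log2 5.75, SE 0.87, adjusted p = 0.00238). Sfrp4, a secreted antagonist of Wnt ligands, had 394 and 416 RPKM in Fibroblast and 11.9 and 3.87 RPKM in Total tumor (log2 5.68, SE 0.73, adjusted p = 0.00127). For all 3 the groups lay far apart, and Total tumor 2 was the lower of the whole-tumor libraries. Cxcl13, the chemokine that attracts B cells, stood at 203 and 346 RPKM in Fibroblast against 6.47 and 2.38 RPKM in Total tumor (log2 5.72, adjusted p = 0.00243). The other genes among the 10 largest were Gpc3 (a cell-surface heparan sulfate proteoglycan), Efemp1 (a fibulin), Arsi, Fndc1, Clec3b (tetranectin) and Smpd3 (a neutral sphingomyelinase). Their log2 differences ran between 5.52 and 5.69, and Arsi and Smpd3 were under 5 RPKM in both whole-tumor libraries. The call of each of these 10 genes held in all 21 alternatives tried.

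**Figure D1:**
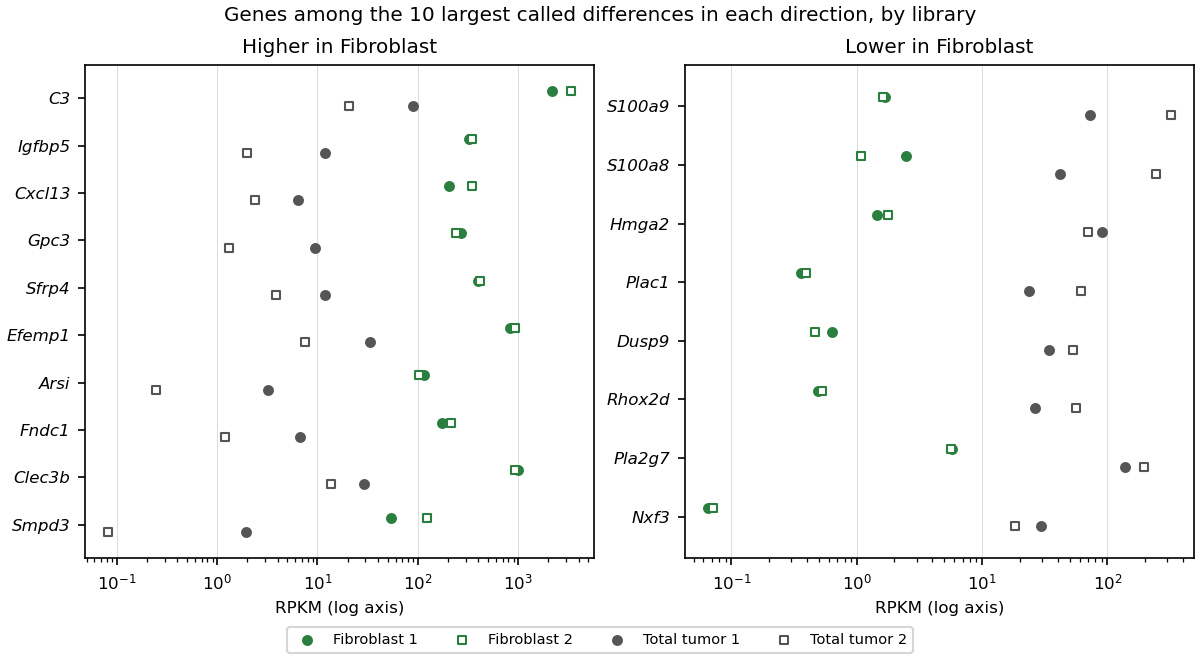
RPKM (log axis) in each library for the 10 genes with the largest called higher difference and 8 of the 10 with the largest lower one; circles are replicate 1, squares replicate 2, green Fibroblast and grey Total tumor. In the left panel both Fibroblast libraries lie above both Total tumor libraries for all 10 genes, and Total tumor 2 lies below Total tumor 1; in the right panel the groups are reversed, with Nxf3 at 0.065 and 0.071 RPKM in Fibroblast.

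The masking of abundant transcripts can be read from ranks. Of the 100 genes with the highest mean in Fibroblast, 39 were also among the top 100 of Total tumor, and 34 lay beyond rank 1000 there. Of these 100 genes, 56 were called higher in Fibroblast, against 12.1% of all genes tested. Choosing genes by their Fibroblast level favours higher calls and ranks further down in Total tumor. The counts of these 100 genes therefore describe them and test nothing. Over the 881 called genes with at least 10 RPKM in Fibroblast, the Total tumor level had a median of 14.3% of the Fibroblast level, with quartiles of 4.65 and 33.6%. The median was 15.0% in Total tumor 1 and 12.3% in Total tumor 2. Under 5% of the Fibroblast level remained for 246 of them, and 58 kept 50% or more. These 881 genes were chosen by the same contrast, so the percentages describe them and test nothing.

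Fibrillar collagens were among the most abundant transcripts of the sorted cells and were lower in the whole tumor. Of 11 fibrillar collagen genes listed, 8 passed the filter and these 8 were higher in Fibroblast, with a median log2 difference 3.16 above that of all genes. With no filter, 7 of the 11 were higher and 1 was lower. Together they held 6.15 and 5.78% of the summed RPKM of the genes tested in the Fibroblast libraries, against 0.678 and 0.338% in Total tumor. Col1a1 (NM_007742), the gene of the sort reporter, stood at 5315 and 4200.4 RPKM in Fibroblast and at 257 and 206 RPKM in Total tumor (log2 4.35, SE 0.83, adjusted p = 0.00569). Col1a2, which encodes the other chain of type I collagen, had 4550.3 and 4003 RPKM in Fibroblast and 214 and 120.4 RPKM in Total tumor (log2 4.73, SE 0.89, adjusted p = 0.00557). Col5a2, a chain of the type V collagen that nucleates fibrils, had the largest difference of the list, with 422 and 399.7 RPKM in Fibroblast and 19.7 and 9.09 RPKM in Total tumor (log2 4.83, adjusted p = 0.00246).

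Col3a1 was the most abundant transcript of the sorted cells and was hidden less. It reached 9618 and 9421 RPKM in Fibroblast, against 1568 and 1199 RPKM in Total tumor (log2 2.79, SE 0.75, adjusted p = 0.0205). The LLC libraries held it at 2507 and 3142 RPKM, above both whole-tumor libraries. The Col1a1 level in LLC was 76.2 and 192 RPKM, below both whole-tumor libraries. The call of Col3a1 ended without Fibroblast 1 (adjusted p = 0.111), without Fibroblast 2 (0.115), in a fit of only the 4 libraries (0.0902), after quantile normalization (0.0915) and without the filter on low values (0.0675).

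Of 25 other interstitial collagens listed, 13 were tested, and 10 were higher and 1 was lower. Col14a1, which sits on the surface of fibrils, stood at 281 and 327 RPKM in Fibroblast and at 12.5 and 3.67 RPKM in Total tumor (log2 5.26, adjusted p = 0.00218). Col6a3, of the beaded filaments, had 377 and 366 RPKM in Fibroblast and 40.4 and 16.6 RPKM in Total tumor (log2 3.78, adjusted p = 0.00295). Col7a1, the anchoring fibril collagen of epithelium, went the other way, with 3.54 and 1.32 RPKM in Fibroblast and 8.33 and 8.06 RPKM in Total tumor (log2 -1.50, adjusted p = 0.0180). LLC held Col7a1 at 12.6 and 7.66 RPKM, and its call ended in 4 alternatives, among them upper-quartile rescaling (adjusted p = 0.0919) and the fit without Fibroblast 2 (0.132). Col16a1 was not called, with 88.3 and 71.1 RPKM in Fibroblast and 68.5 and 98.8 RPKM in Total tumor.

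Basement membrane genes divided by chain. Of 24 listed, 18 were tested, and 13 were higher and 2 were lower. The laminin chain genes Lama2 and Lama4 were higher by 4.29 and 4.22 (log2; adjusted p = 0.000679 and 0.000981), and Lama2 stood at 37.3 and 44.3 RPKM in Fibroblast against 1.97 and 0.526 RPKM in Total tumor. Lama5, the alpha chain of epithelial and endothelial laminins, stood at 1.94 and 2.87 RPKM in Fibroblast against 44.9 and 36.0 RPKM in Total tumor (log2 -3.61, SE 0.25, adjusted p = 0.000516). Both LLC libraries held Lama5 above the whole tumor, at 49.8 and 46.8 RPKM. Col18a1, the source of endostatin, was lower too (log2 -1.56, adjusted p = 0.00393), at 89.7 and 58.4 RPKM in Fibroblast, 203 and 230 RPKM in Total tumor and 322 and 285 RPKM in LLC. Sparc, a collagen-binding glycoprotein and the fourth most abundant gene of the sorted cells, had 4457 and 3530 RPKM in Fibroblast and 311 and 309 RPKM in Total tumor (log2 3.67, adjusted p = 0.00543).

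The machinery that processes collagen was only partly hidden. Of 27 genes of collagen modification and crosslinking, 25 were tested, and 11 were higher, 1 was lower and 13 were not called, and the list's median lay 1.14 above that of all genes. Loxl1, a lysyl oxidase, stood at 466 and 432 RPKM in Fibroblast and at 13.3 and 8.70 RPKM in Total tumor (log2 5.26, adjusted p = 0.00123). Loxl2, of the same family, and Adamts2, the procollagen N-proteinase, were higher by 4.84 and 4.65 on the log2 scale (adjusted p = 0.00245 and 0.00132). P4hb, the shared subunit of prolyl 4-hydroxylase and a general disulfide isomerase, was not called, with 533 and 496 RPKM in Fibroblast and 359 and 508 RPKM in Total tumor. Pcolce, which enhances removal of the procollagen C-propeptide, had 724 and 549.5 RPKM in Fibroblast and 304 and 477 RPKM in Total tumor (adjusted p = 0.149). It was called after upper-quartile rescaling (adjusted p = 0.0132), after the length correction (0.0208) and without Total tumor 2 (0.0451). Leprel1, a prolyl 3-hydroxylase gene, was the lower one (log2 -1.18, adjusted p = 0.0439), and its call ended in 13 of the 21 alternatives.

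Elastic fiber genes and small leucine-rich proteoglycans followed the collagens. Of 17 elastic fiber genes, 12 were higher and none lower, led by Efemp1, which had 829.6 and 920.1 RPKM in Fibroblast and 33.7 and 7.52 RPKM in Total tumor (log2 5.67, adjusted p = 0.00202). Mfap5 and Mfap2, microfibril proteins, were higher by 4.75 and 4.55 (log2; adjusted p = 0.00156 and 0.000734). Ltbp1, which anchors latent TGF-beta, and Emilin1 were not called, with adjusted p = 0.118 and 0.661. After upper-quartile rescaling Ltbp1 was called higher (adjusted p = 0.0358). Of 14 small leucine-rich proteoglycans, which bind collagen fibrils and set their spacing, 11 were tested, and 10 were higher and 1 was lower, but the higher count was 5 without Fibroblast 1 and 6 without Fibroblast 2. Prelp, Ogn and Podn led, higher by 5.07, 5.00 and 4.22 (log2; adjusted p = 0.00204, 0.00148 and 0.00124). Dcn (decorin), the fifth most abundant gene, stood at 2940.4 and 3285 RPKM in Fibroblast against 406 and 375 RPKM in Total tumor (log2 2.99, adjusted p = 0.00858). LLC held Dcn at 605 and 961 RPKM, and its call ended without either Fibroblast library (adjusted p = 0.0542 and 0.0663). Kera (keratocan), the lower member, was listed at 0.099 and 0 RPKM in Fibroblast and at 3.54 and 7.06 RPKM in Total tumor (adjusted p = 0.00272).

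Matricellular and adhesion glycoproteins were mostly higher. Of 30 listed, 27 were tested, and 21 were higher and 1 was lower, and the median lay 3.59 above that of all genes. Tnxb, tenascin-X, stood at 272 and 269.6 RPKM in Fibroblast and 10.0 and 3.84 RPKM in Total tumor (log2 5.22, adjusted p = 0.00151). Postn, periostin, had 661 and 672 RPKM in Fibroblast and 33.7 and 14.9 RPKM in Total tumor (log2 4.83, adjusted p = 0.00684), though it missed the threshold if Fibroblast 1 (adjusted p = 0.0512) or Fibroblast 2 (0.0558) was left out. Spp1, osteopontin, was the lower member, with 126 and 52.2 RPKM in Fibroblast against 961 and 1070.1 RPKM in Total tumor (log2 -3.63, SE 0.58, adjusted p = 0.00295). Its level in LLC was 1420.3 and 1105 RPKM. Fn1, fibronectin, was not called despite 961 and 1320 RPKM in Fibroblast and 436 and 241 RPKM in Total tumor (log2 1.79, SE 0.76, adjusted p = 0.0938).

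Matrix proteases went both ways. Of 29 listed, 27 were tested, and 14 were higher and 5 lower in Fibroblast. The lower share was under the 30% of all genes. Mmp2 (gelatinase A) reached 1004 and 1053 RPKM in Fibroblast, against 39.9 and 27.8 RPKM in Total tumor (log2 4.91, adjusted p = 0.00386). Htra3 and Adamts15, a serine protease and an aggrecanase-family gene, were higher by 5.13 and 4.94 (log2; adjusted p = 0.00075 and 0.000911). Mmp12 (macrophage metalloelastase) was lower, at 0.427 and 1.05 RPKM in Fibroblast, 8.82 and 12.5 RPKM in Total tumor and 40.5 and 62.0 RPKM in TAM (log2 -2.75, adjusted p = 0.00106). The collagenases Mmp8 and Mmp13 were lower as well (log2 -2.08 and -2.05, adjusted p = 0.00236 and 0.00334) and were likewise highest in TAM. Mmp14, the membrane-bound collagenase that activates Mmp2, was not called, at 364 and 391 RPKM in Fibroblast, 176 and 286 RPKM in Total tumor and 278 and 326 RPKM in LLC. It was called after upper-quartile rescaling (adjusted p = 0.00695), quantile normalization (0.0300), the length correction (0.0306) and without Total tumor 2 (0.0102). Of 18 protease inhibitors, 15 were tested, and 9 were higher and 1, Cstb, was lower (adjusted p = 0.0410), a call lost in 11 alternatives. Serping1, the C1 inhibitor, stood at 1756 and 2039.6 RPKM in Fibroblast and 62.4 and 40.5 RPKM in Total tumor (log2 5.21, adjusted p = 0.0037). Serpina3n and Timp3, a metalloproteinase inhibitor, were higher by 5.15 and 4.41 (log2; adjusted p = 0.00364 and 0.00221).

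**Figure D2:**
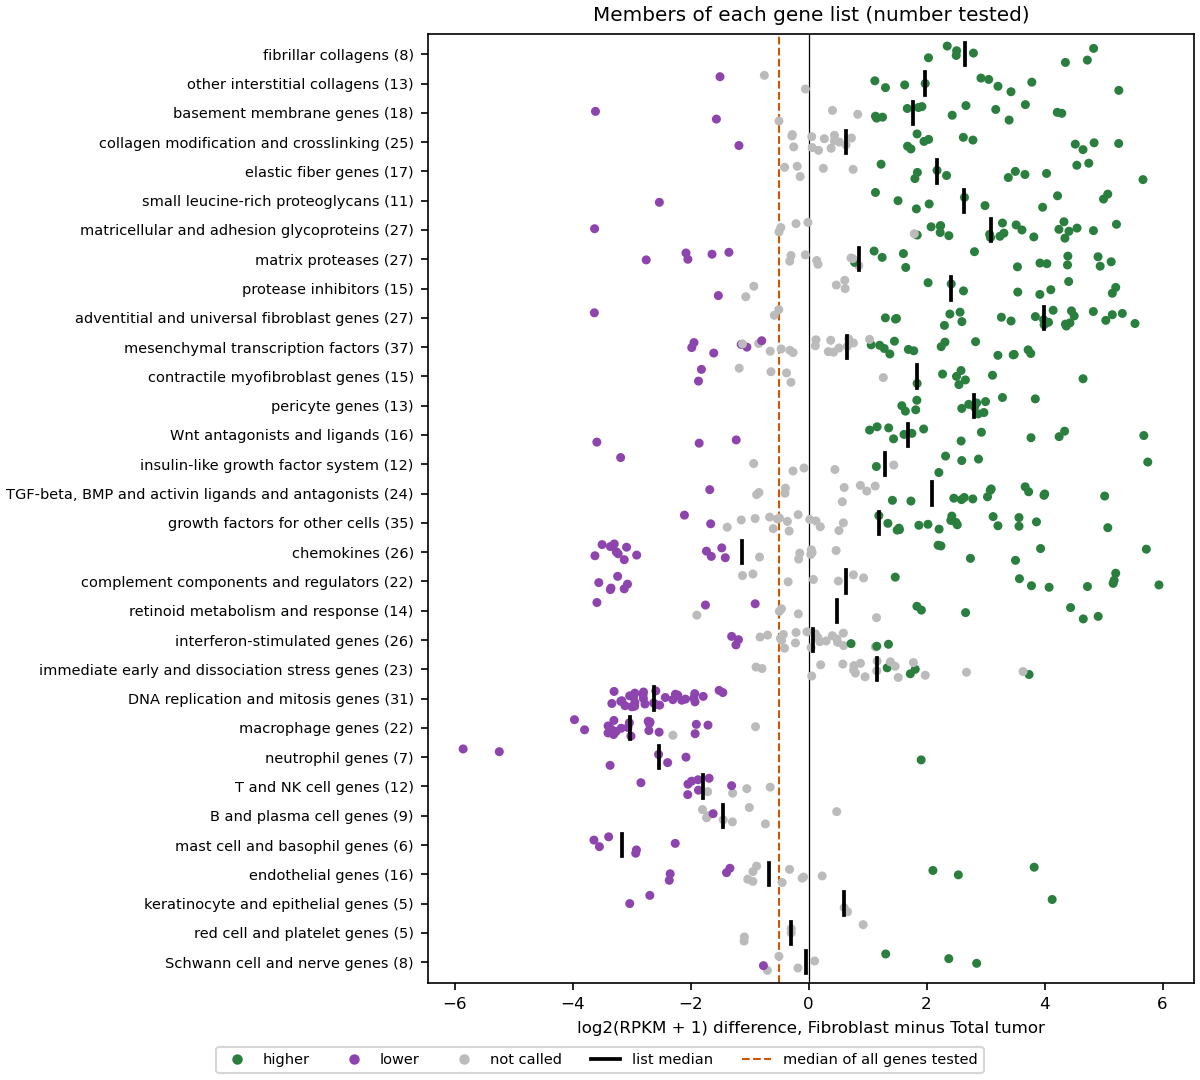
Difference of log2(RPKM + 1), Fibroblast minus Total tumor, for the tested members of each gene list with at least 5 of them; green points were called higher, purple lower and grey not called, black bars are list medians and the dashed line is the median of all genes at -0.51. The matrix and fibroblast lists in the upper part lie to the right of the dashed line, collagen modification and the transcription factors have many grey points near 0, and all 31 replication and mitosis genes lie to its left.

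Genes that mark fibroblasts across tissues had the largest median difference of the lists. Of 27 adventitial and universal fibroblast genes, 24 were higher and 1 was lower, with a median 4.49 above that of all genes and a median Total tumor level of 6.14% of the Fibroblast level. Pi16, a marker of adventitial fibroblasts, had 1822 and 1638 RPKM in Fibroblast and 49.7 and 36.0 RPKM in Total tumor (log2 5.32, SE 0.73, adjusted p = 0.00166). Clec3b stood at 992 and 937 RPKM in Fibroblast and 29.0 and 13.5 RPKM in Total tumor (log2 5.53, adjusted p = 0.00331). Pdgfra, the PDGF receptor used to define fibroblasts, was hidden less, at 104 and 145 RPKM in Fibroblast and 33.1 and 15.2 RPKM in Total tumor (log2 2.40, adjusted p = 0.00514). LLC held Pdgfra at 40.0 and 51.3 RPKM, and its call ended without Fibroblast 2 (adjusted p = 0.0545). S100a4, also known as fibroblast-specific protein 1, was lower in the sorted fibroblasts, with 191 and 154 RPKM in Fibroblast against 1242 and 3667 RPKM in Total tumor (log2 -3.63, SE 0.58, adjusted p = 0.00285). It stood at 1720.4 and 1251 RPKM in LLC and 831 and 811 RPKM in TAM. Vim (vimentin) was high in every library, at 1758 and 1355 RPKM in Fibroblast, 1919 and 2501 RPKM in Total tumor, and was not called.

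Transcription factors of mesenchymal cells went both ways, with a share of lower calls under the 30% of all genes. Of 45 listed, 37 were tested, and 15 were higher, 6 lower and 16 not called, with a median 1.17 above that of all genes, and the count of lower genes was 2 without Fibroblast 2 and 3 after either rescaling. En1, a homeobox factor of the dermal fibroblast lineage, stood at 17.3 and 15.4 RPKM in Fibroblast and was listed at 0.626 and 0 RPKM in Total tumor (adjusted p = 0.000616). Ebf2, an early B cell factor family member expressed in mesenchyme, had 12.9 and 16.7 RPKM in Fibroblast and 0.815 and 0.077 RPKM in Total tumor (log2 3.49, adjusted p = 0.000552). Klf4 had 268 and 149 RPKM in Fibroblast and 30.1 and 6.47 RPKM in Total tumor (log2 3.72, adjusted p = 0.00354). Nr2f1 and Sox9 were lower (log2 -1.98 and -1.94, adjusted p = 0.00379 and 0.0025), and both were higher in LLC than in Fibroblast by level, with Nr2f1 at 42.4 and 26.7 RPKM in LLC. Osr2 and Nfix, not called, differed between the groups by a log2 of 0.66 and 0.52. Both were called higher after upper-quartile rescaling (adjusted p = 0.0343 and 0.00818).

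Contractile genes and pericyte genes were both present in the GFP-positive cells. Of 18 contractile genes, 15 were tested, and 8 were higher and 2 lower, with a lower count of 4 without Total tumor 1 and 1 without Fibroblast 2. Acta2, smooth muscle actin and the usual myofibroblast marker, had 109.8 and 51.3 RPKM in Fibroblast and 10.4 and 13.9 RPKM in Total tumor (log2 2.55, adjusted p = 0.00257). Myl9, a myosin light chain, and Des, desmin, were higher by 3.12 and 2.66 (log2; adjusted p = 0.00257 and 0.00293). Tpm1, a tropomyosin expressed in many cells, was lower, at 129 and 97.2 RPKM in Fibroblast, 347 and 453 RPKM in Total tumor and 408 and 334 RPKM in LLC (log2 -1.82, adjusted p = 0.00305). All 13 pericyte genes were higher in Fibroblast. Rgs5 stood at 67.2 and 57.7 RPKM in Fibroblast and 6.70 and 1.53 RPKM in Total tumor (log2 3.84, adjusted p = 0.00189), Vtn at 11.8 and 10.9 RPKM in Fibroblast and 0.172 and 0.365 RPKM in Total tumor, and Pdgfrb at 65.7 and 52.4 RPKM in Fibroblast and 7.89 and 5.26 RPKM in Total tumor. The sorted fraction therefore held pericyte markers along with fibroblast markers. Whether separate pericytes carried them was not tested.

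Wnt pathway ligands and antagonists were mostly higher in the sorted cells. Of 26 Wnt ligands and antagonists, 16 were tested, and 13 were higher and 3 lower. With no filter 25 were tested, and 16 were higher and 4 lower. Sfrp2 stood at 230.4 and 206 RPKM in Fibroblast and 11.7 and 9.42 RPKM in Total tumor (log2 4.25, adjusted p = 0.00174). The ligand gene Wnt2 had 39.0 and 25.7 RPKM in Fibroblast and was listed at 1.61 and 0 RPKM in Total tumor (adjusted p = 0.000887). Dkk2, a Wnt antagonist, was lower, with 9.86 and 7.28 RPKM in Fibroblast and 105 and 121 RPKM in Total tumor (log2 -3.59, adjusted p = 0.000516), and LLC held it at 164 and 202 RPKM. Of 16 genes of the insulin-like growth factor system, 12 were tested, and 6 were higher (3 without Fibroblast 2) and 1 was lower (2 without either Total tumor library). Igfbp6 had 463 and 349.6 RPKM in Fibroblast and 42.8 and 100.5 RPKM in Total tumor (log2 2.60, adjusted p = 0.00285). Stc1, stanniocalcin, was lower (log2 -3.18, adjusted p = 0.000552), and Igfbp4 was not called, at 574 and 480.5 RPKM in Fibroblast, 731 and 1373 RPKM in Total tumor and 1425 and 1230.1 RPKM in LLC.

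The TGF-beta and BMP list had 24 of 29 members tested, with 14 higher and 1 lower (2 without Total tumor 1 and 0 without Fibroblast 2). The 3 leading members restrain or diverge from BMP and activin signalling: Chrdl1, a BMP antagonist, Gdf10, a divergent BMP family ligand, and Fst, follistatin, the activin antagonist. Chrdl1 stood at 56.8 and 79.3 RPKM in Fibroblast and at 2.67 and 0.202 RPKM in Total tumor (log2 5.02, adjusted p = 0.00106). Gdf10 had 26.9 and 31.6 RPKM in Fibroblast and 2.03 and 0.169 RPKM in Total tumor (adjusted p = 0.000868), and Fst was higher by 3.99 (log2; adjusted p = 0.000705). Tgfb1 was lower, at 24.7 and 12.1 RPKM in Fibroblast, 35.0 and 94.6 RPKM in Total tumor and 175 and 162 RPKM in TAM (log2 -1.67, adjusted p = 0.0275). The Tgfb1 call ended in 5 alternatives, among them the fits without Fibroblast 2 (adjusted p = 0.188) and without Total tumor 2 (0.0818).

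Of 35 growth factor genes that act on other cells, 18 were higher and 2 lower. The lower count was 1 without either Fibroblast library, 4 without Total tumor 1 and 5 without Total tumor 2. Cxcl12, the ligand of Cxcr4, had 414 and 623 RPKM in Fibroblast and 17.6 and 11.3 RPKM in Total tumor (log2 5.07, SE 0.75, adjusted p = 0.00216). Fgf18 stood at 17.6 and 16.2 RPKM in Fibroblast and 0.782 and 0.276 RPKM in Total tumor (log2 3.57, adjusted p = 0.000542). Il6 differed between the Fibroblast libraries, at 75.5 and 9.94 RPKM, and was listed at 2.96 and 0 RPKM in Total tumor. The adjusted p of Il6 was 0.0177, and 0.110 without Fibroblast 1, 0.0771 without Total tumor 2 and 0.0626 in a fit of only the 4 libraries. Kitl, the Kit ligand, was not called, at 10.6 and 17.4 RPKM in Fibroblast and 27.9 and 11.2 RPKM in Total tumor.

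Chemokines and complement genes went both ways. Of 30 chemokines, 26 were tested, and 6 were higher and 13 lower, and the lower count was 7 without Fibroblast 1, 5 without Fibroblast 2 and 8 after upper-quartile rescaling. Besides Cxcl13, Cxcl14 and Ccl11 (eotaxin, which attracts eosinophils) were higher, by 3.93 and 3.51 (log2; adjusted p = 0.00154 and 0.00198). Ccl11 stood at 431 and 618 RPKM in Fibroblast, 50.4 and 39.2 RPKM in Total tumor and 102 and 98.0 RPKM in LLC. Ccl3 and Cxcl3 were lower (log2 -3.62 and -3.36, adjusted p = 0.00247 and 0.00226), and both were highest in TAM, where Ccl3 reached 387 and 126 RPKM. Cxcl1 was not called, and its Fibroblast libraries differed, at 403 and 65.1 RPKM, against 135 and 102 RPKM in Total tumor. Of 33 complement genes, 22 were tested, and 9 were higher and 6 lower, the lower share being near the 30% of all genes. Cd55, which inactivates complement convertases at the cell surface, joined C3 and Serping1 on the higher side, at 142 and 157 RPKM in Fibroblast and 8.81 and 0.757 RPKM in Total tumor (log2 5.18, adjusted p = 0.00236). C1qa, a subunit of the initiating C1q complex, was lower, at 37.6 and 39.5 RPKM in Fibroblast, 181 and 903 RPKM in Total tumor and 3789 and 2436 RPKM in TAM (log2 -3.36, adjusted p = 0.0183). The C1qa call ended without Fibroblast 1 (adjusted p = 0.101), Fibroblast 2 (0.102) or Total tumor 2 (0.0648), and the count of lower complement genes was 2 without Fibroblast 1.

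Of 16 genes of retinoid metabolism and response, 14 were tested, and 6 were higher and 3 lower, with a lower count of 6 without Total tumor 1, 1 without Fibroblast 2 and 1 after either rescaling. Aldh1a3 and Aldh1a1, enzymes that make retinoic acid, were higher by 4.91 and 4.66 (log2; adjusted p = 0.000552 and 0.00125). Aldh1a3 stood at 52.3 and 55.6 RPKM in Fibroblast and 1.97 and 0.125 RPKM in Total tumor. Rarres2, chemerin, was the most abundant of the list, at 1176 and 1310 RPKM in Fibroblast and 50.0 and 63.1 RPKM in Total tumor (log2 4.44, adjusted p = 0.00232). Stra6, the receptor for retinol-binding protein, was lower, at 1.71 and 0.766 RPKM in Fibroblast, 20.1 and 31.9 RPKM in Total tumor and 34.1 and 29.6 RPKM in LLC (log2 -3.59, adjusted p = 0.000573).

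Genes were counted as masked where they were called higher in Fibroblast, averaged at least 10 RPKM there and lay under 1 RPKM in both Total tumor libraries. There were 65 of them, 62 protein-coding and 3 noncoding, with Fibroblast means between 10.1 and 41.3 RPKM. The count moved with the limit and the libraries: 24 genes lay under 0.5 RPKM in both, 180 under 2 RPKM, and the rule gave 197 genes without Total tumor 1, when only Total tumor 2 had to lie under the limit. Ngfr, at 0.999 RPKM in the higher Total tumor library, lay just inside the limit and Apol6, at 1.01 RPKM, just outside. In 61 of the 65 the LLC and TAM means were under 1 RPKM as well.

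Itga11 (NM_176922), a collagen-binding integrin chain of fibroblasts, headed the masked genes with 26.2 and 56.4 RPKM in Fibroblast and 0.895 and 0.302 RPKM in Total tumor (log2 4.65, SE 0.49, adjusted p = 0.000735). Mrgprg, an orphan G protein-coupled receptor gene, stood at 20.9 and 41.1 RPKM in Fibroblast and was listed at 0.329 and 0 RPKM in Total tumor (adjusted p = 0.000793). Serpina3c, of a cluster of similar serpin genes whose reads may be shared, had 16.9 and 38.4 RPKM in Fibroblast and was listed at 0.474 and 0 RPKM in Total tumor. Both groups were well separated for these genes, and Fibroblast 2 was the higher of the sorted libraries. Rcan2, a regulator of calcineurin, had 19.1 and 27.8 RPKM in Fibroblast and 0.371 and 0.852 RPKM in Total tumor (log2 3.92, SE 0.36, adjusted p = 0.000552). Agtr1a, the type 1 angiotensin II receptor, had 18.7 and 25.7 RPKM in Fibroblast and 0.7 and 0.185 RPKM in Total tumor (log2 4.01, SE 0.34, adjusted p = 0.000529). Mustn1, Nova1 (a neuronal-type splicing regulator) and Cpz (a carboxypeptidase that acts on Wnt ligands) had Fibroblast means of 22.4, 22.4 and 20.6 RPKM and were higher by 4.07, 3.73 and 3.64 (log2; adjusted p = 0.000552, 0.000516 and 0.000959). The short noncoding genes AF357359 and Mir6978 were listed at 0 in the 6 other libraries, with 53.0 and 29.0 RPKM of AF357359 and 6.86 and 37.6 RPKM of Mir6978 in Fibroblast. RPKM of such short genes rests on few reads.

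Of the masked genes, 8 belonged to the gene lists: Itga11, Fgf18, En1, Ebf2, Ngfr and Vtn, and 2 named after their values were seen, Col28a1 and Chrd. Ngfr, the low-affinity nerve growth factor receptor, had 14.8 and 10.5 RPKM in Fibroblast and 0.999 and 0.747 RPKM in Total tumor (log2 2.85, adjusted p = 0.000686). Listed at 0 in both Total tumor libraries were 4 genes, AF357359, Mir6978 and, also named after their values were seen (like Wfdc2 in the heat map of masked genes), Krtdap and Sult5a1. Krtdap, a gene of keratinocyte differentiation, stood at 23.4 and 14.6 RPKM in Fibroblast. Of 17 keratinocyte and epithelial genes, 5 passed the filter, and 1 was higher and 2, Krt8 and Krt18, were lower (0 without Fibroblast 1 or without Total tumor 2). The higher one, Krt19, stood at 16.5 and 99.6 RPKM in Fibroblast and 1.97 and 0.929 RPKM in Total tumor (adjusted p = 0.00807, and 0.0512 without Fibroblast 2). Epcam stood at 0.328 and 8.93 RPKM in Fibroblast and 0.195 and 0 RPKM in Total tumor, and Krt5 and Krt14 were at 2.99 and 2.42 RPKM in Fibroblast 2 and at most 0.058 RPKM in Fibroblast 1. The part of epithelial RNA in the masked genes was not tested.

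**Figure D3:**
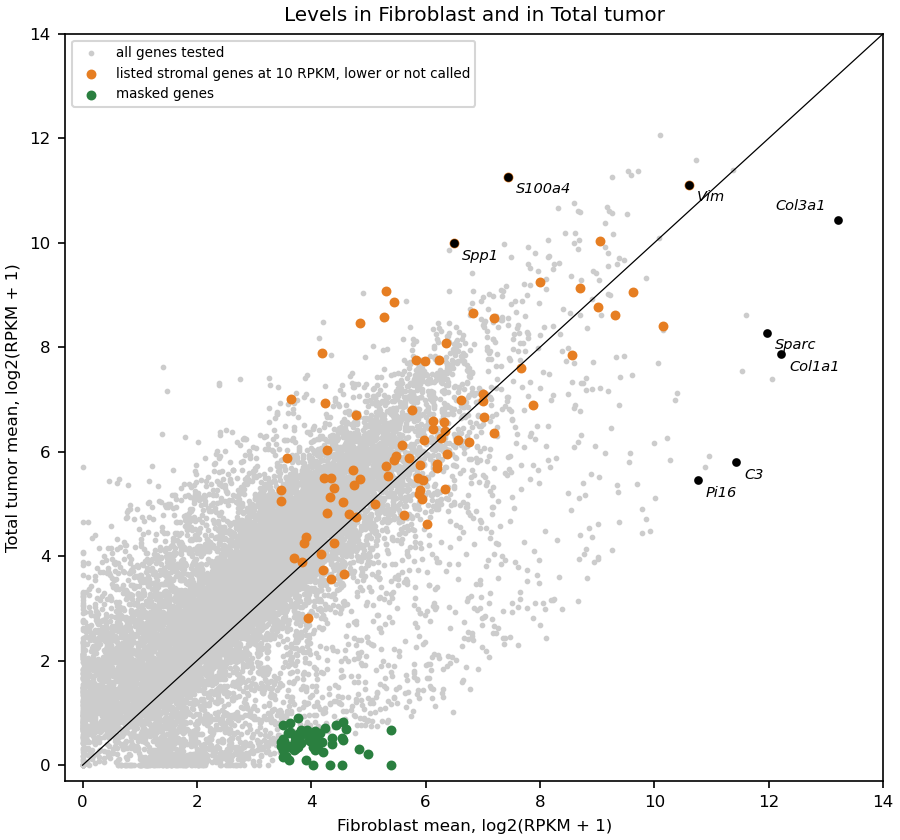
Mean log2(RPKM + 1) of each gene in Fibroblast (horizontal) and in Total tumor (vertical); the line marks equal levels, green points are the 65 masked genes and orange points the 85 stromal list genes with at least 10 RPKM in Fibroblast that were lower or not called. The masked genes lie along the bottom at moderate Fibroblast levels, the most abundant fibroblast genes such as Col3a1 and C3 lie below the line but far above 0, and the orange points lie on both sides of the line, with Fn1 among those below it.

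**Figure D4:**
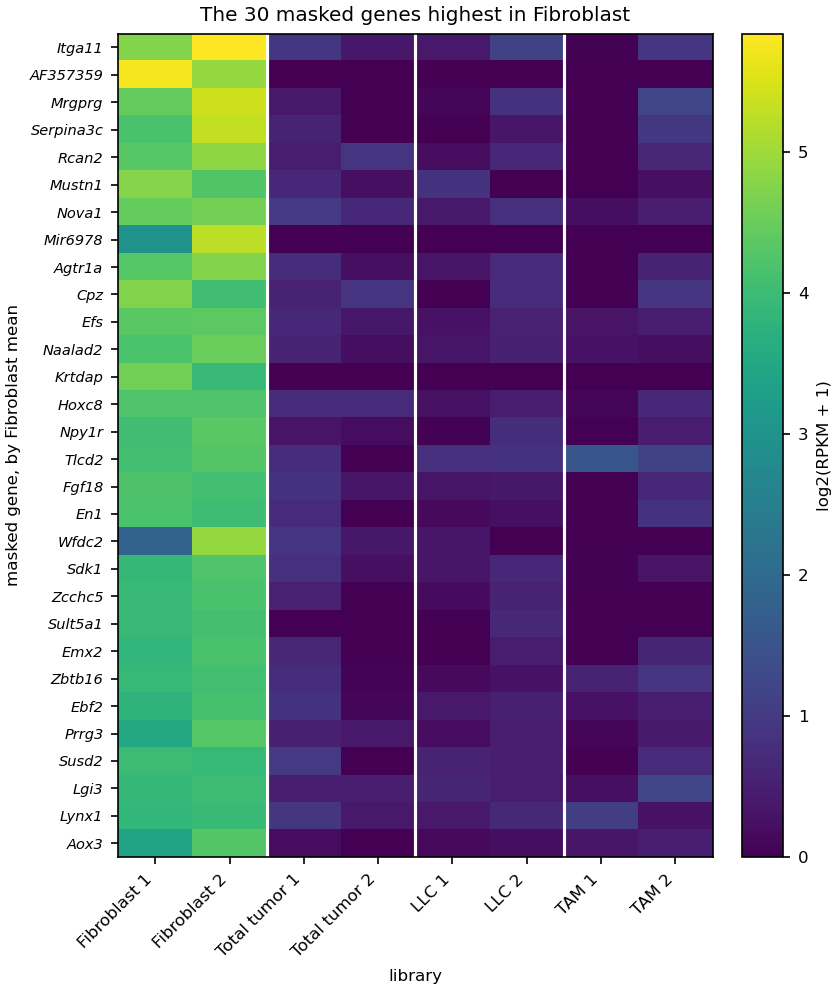
log2(RPKM + 1) in each of the 8 libraries for the 30 masked genes with the highest Fibroblast mean. Both Fibroblast columns are bright for nearly all 30 genes, Wfdc2 and Mir6978 are dim in Fibroblast 1, and the other 6 columns are dark, with faint signal in Total tumor 1, LLC 2 and TAM 2.

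Weak signal of genes high in Fibroblast was not even across the other libraries. The median level of the 65 masked genes was 3.8% of the Fibroblast mean in Total tumor 1 and 0.809% in Total tumor 2, and Total tumor 1 was the higher in 52 of the 65. In the sorted populations it was 0.827% in LLC 1 and 2.53% in LLC 2, and 0% in TAM 1 and 2.32% in TAM 2. Of the 881 genes called higher with at least 10 RPKM in Fibroblast, 643 were higher in LLC 2 than in LLC 1 and 677 higher in TAM 2 than in TAM 1. The same count over all genes tested was not made. A rise in LLC 2 was not particular to fibroblast genes: the macrophage list made up 0.058% of the summed RPKM in LLC 1 and 0.264% in LLC 2. The replication and mitosis list went the other way, at 0.399 and 0.311%. Genes were chosen here for being low in Total tumor, and how the other libraries came by this signal was not tested.

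A second set of stromal genes was not called higher in the sorted cells: they were lower in Fibroblast or were not called. The lists of matrix, remodelling, identity and signal genes held 466 distinct symbols, of which 387 were tested: 225 were higher in Fibroblast, 50 lower and 112 not called. At a Fibroblast mean of at least 10 RPKM there were 267, with 182 higher, 64 not called and 21 lower. Since a floor on the Fibroblast level favours higher calls, these counts describe the lists and test nothing. In the 182 higher genes the median LLC level was 5.34% of the Fibroblast level, and in the 64 not called it was 107%. The LLC mean was at least the Fibroblast mean in none of the 182, in 35 of the 64 and in 18 of the 21. The higher of the LLC and TAM means was at least the Total tumor mean in 103 of the 182, in 52 of the 64 and in 16 of the 21. TAM held a median of 2.03% of the Fibroblast level in the higher genes, 17.2% in those not called and 509% in the lower ones. The classes were set by the Fibroblast and Total tumor values, and these LLC and TAM figures use the same values again. A low LLC share in the higher genes was therefore partly set by the choice of genes. The figures describe the classes and test nothing, and the same shares over all genes tested are not given. Whether expression in LLC or TAM hid these genes was not tested.

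By level, the leading genes of the 64 were Vim, Fn1, Serpinf1 (pigment epithelium-derived factor), Pcolce and Igfbp4. Serpinf1 stood at 839 and 747 RPKM in Fibroblast, 393 and 673 RPKM in Total tumor and 657 and 509.6 RPKM in LLC, and LLC held Fn1 at 558 and 998 RPKM. Hspg2 (perlecan) stood at 153 and 137 RPKM in Fibroblast and 89.6 and 72.9 RPKM in Total tumor. Lamb1, a laminin chain, had 120.4 and 138 RPKM in Fibroblast and 126 and 74.9 RPKM in Total tumor. LLC held Lamb1 at 156 and 160.3 RPKM. TAM had under 10 RPKM of Hspg2 and of Lamb1 in both libraries. For Thbs1, thrombospondin 1, the pattern differed: it had 88.1 and 49.2 RPKM in Fibroblast, 122 and 68.9 RPKM in Total tumor, 5.97 and 10.9 RPKM in LLC and 228 and 245 RPKM in TAM. A p that misses the threshold does not show that these genes were equal, and of the 54 named genes not called, 34 were called in at least 1 alternative. After upper-quartile rescaling Fn1, Serpinf1 and Hspg2 were called higher in Fibroblast (adjusted p = 0.0498, 0.0124 and 0.0264), as was Pcolce. Igfbp4 was called lower after quantile normalization (adjusted p = 0.00877).

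**Figure D5:**
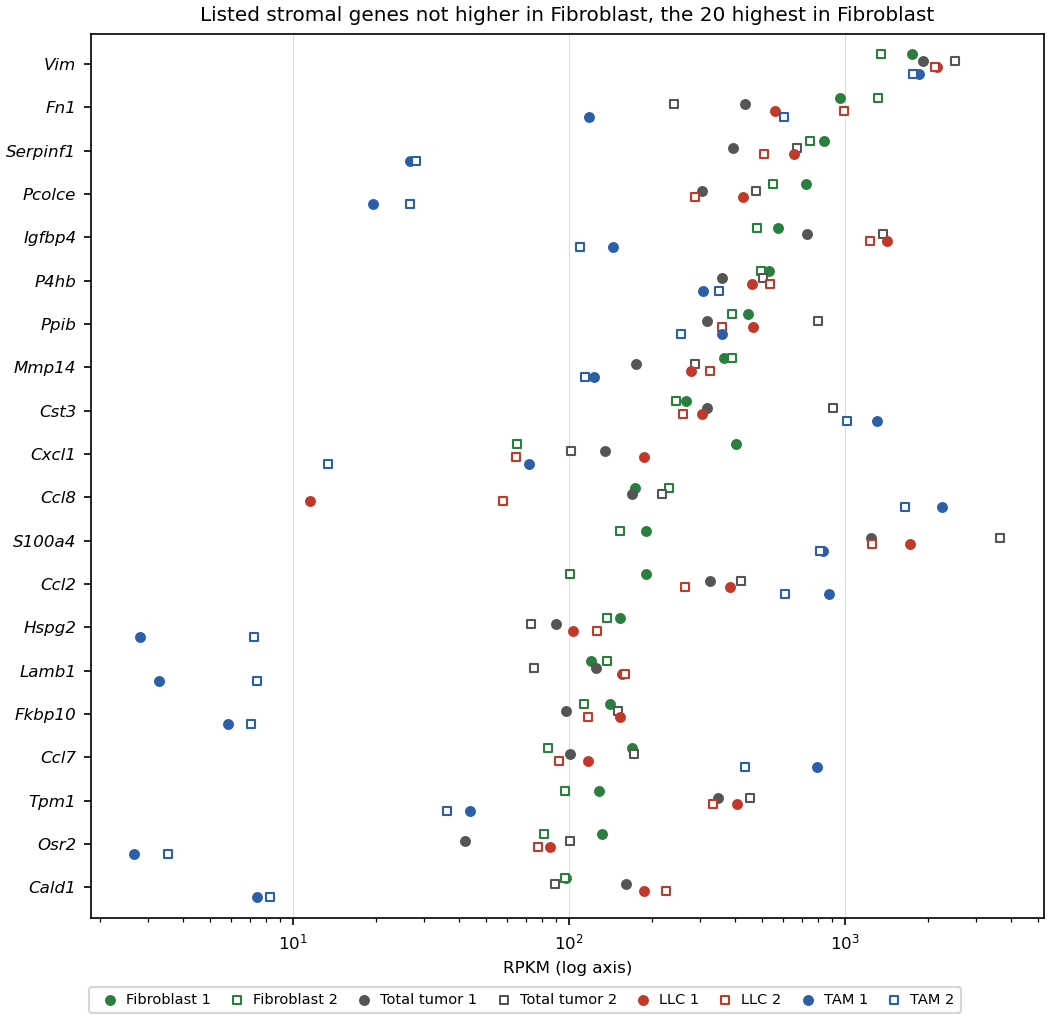
RPKM (log axis) in each library for the 20 stromal list genes with the highest Fibroblast mean among those not called or lower; circles are replicate 1, squares replicate 2, and colors mark Fibroblast, Total tumor, LLC and TAM. LLC (red) lies close to or above Fibroblast (green) for genes such as P4hb, Lamb1 and Cald1, while for Ccl8, Ccl2 and Cst3 TAM (blue) is the highest group.

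The largest lower differences belonged to genes of neutrophils and to genes that LLC expressed. S100a9 and S100a8, the calprotectin subunits of neutrophils, led: S100a9 stood at 1.67 and 1.63 RPKM in Fibroblast and 72.7 and 319 RPKM in Total tumor (log2 -5.85, SE 0.65, adjusted p = 0.000847), and at no more than 17.8 RPKM in any LLC or TAM library. Hmga2, a chromatin protein of embryonic and tumor cells, had 1.45 and 1.77 RPKM in Fibroblast, 89.7 and 70.3 RPKM in Total tumor and 87.9 and 90.9 RPKM in LLC (log2 -4.95, SE 0.23, adjusted p = 0.000516). Plac1, Dusp9, Rhox2d and Nxf3 were under 1 RPKM in both Fibroblast libraries and over 18 RPKM in both Total tumor and both LLC libraries. Pla2g7, a secreted phospholipase, stood at 5.81 and 5.64 RPKM in Fibroblast, 138 and 197 RPKM in Total tumor, 129 and 145 RPKM in LLC and 335 and 285 RPKM in TAM.

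Proliferation genes were uniformly lower. All 31 genes of DNA replication and mitosis were lower in Fibroblast, with a median 2.12 below that of all genes. Top2a stood at 11.6 and 7.39 RPKM in Fibroblast and 132 and 75.7 RPKM in Total tumor (log2 -3.30, adjusted p = 0.000673), and Ccnb1 and Cdk1 had log2 differences of -3.33 and -3.18. Of the immune genes tested, 20 of 22 macrophage genes, 6 of 7 neutrophil genes, 8 of 12 T and NK cell genes and all 6 mast cell and basophil genes were lower, against 30% of all genes. Of 9 B and plasma cell genes 1 was lower, which is under that share. These counts rested on few libraries: the macrophage count was 5 without Fibroblast 1, 6 without Fibroblast 2 and 10 without Total tumor 2, and the T and NK cell count was 1 without Fibroblast 1, 2 without Fibroblast 2 5 without Total tumor 1 and 2 after upper-quartile rescaling. B cell genes differed between the whole tumors, with Cd79a at 16.02 RPKM in Total tumor 1 and 0.16 RPKM in Total tumor 2, and 8 of the 9 were called lower without Total tumor 2. Some genes of the immune lists were higher in another sorted group than in the whole tumor. Gata2, of the mast cell list, averaged 18.6 RPKM in LLC and 15.7 RPKM in Total tumor. Mmp8 and Csf3r, of the neutrophil list, averaged 15.4 and 31.0 RPKM in TAM against 3.71 and 13.8 RPKM in Total tumor. The other lower genes of the mast cell and neutrophil lists were highest in Total tumor. The macrophage list made up 0.155 and 0.221% of the summed RPKM in Fibroblast, 0.784 and 1.35% in Total tumor and 6.54 and 5.65% in TAM. Emr1, which encodes F4/80, stood at 1.88 and 3.20 RPKM in Fibroblast and 162 and 229.6 RPKM in TAM.

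Of 16 endothelial genes tested, 3 were higher, 4 lower and 9 not called, near the 12.1 and 30% of all genes. Tek, the angiopoietin receptor, was higher, at 20.2 and 31.4 RPKM in Fibroblast and 1.51 and 0.365 RPKM in Total tumor (log2 3.82, adjusted p = 0.000731), whereas Pecam1 was lower, at 6.51 and 3.58 RPKM in Fibroblast and 14.05 and 14.7 RPKM in Total tumor (adjusted p = 0.0287). The Pecam1 call ended in 7 alternatives. The endothelial counts were 1 higher and 1 lower without Fibroblast 1, and 1 higher and 0 lower without Fibroblast 2; leaving out either Total tumor library gave 2 lower and upper-quartile rescaling gave 1. The single higher neutrophil gene was Lcn2, lipocalin 2, at 37.1 and 57.5 RPKM in Fibroblast and 5.67 and 22.8 RPKM in Total tumor (adjusted p = 0.0441), and its call ended in 8 alternatives, with an adjusted p up to 0.226 without Fibroblast 2. Among Schwann cell and nerve genes 3 of 8 were higher, Ngfr, Pmp22 and S100b. Lpl, of the 2 adipocyte genes that passed the filter, was higher (log2 2.19, adjusted p = 0.00151). No skeletal muscle gene of 3 and no red cell or platelet gene of 5 was called, but 3 and 2 were lower without Total tumor 1.

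Immediate early genes, which tissue dissociation is known to induce, were higher in replicate 1 than in replicate 2 of every group by summed level. Their summed RPKM was 6154 and 2516 in Fibroblast, 2117 and 1125 in Total tumor, 1670 and 1240 in LLC and 6756 and 3823 in TAM. Of 23 tested, 4 were higher and none lower, with a median 1.67 above that of all genes, and the count of higher genes was 0 without Fibroblast 1, 13 without Total tumor 1, 13 after upper-quartile rescaling and 11 with the replicate number as a block. Fos stood at 1117 and 444 RPKM in Fibroblast and 313 and 37.8 RPKM in Total tumor (log2 2.68, adjusted p = 0.0511). Egr1 had 595 and 351 RPKM in Fibroblast and 79.6 and 13.6 RPKM in Total tumor (log2 3.74, adjusted p = 0.00529, and 0.0510 without Fibroblast 1). Zfp36 was 741 RPKM in Fibroblast 1 and 149 RPKM in Fibroblast 2. Klf4, Il6 and Cxcl1 were also higher in Fibroblast 1 than in Fibroblast 2. The part of dissociation in their values was not tested. Of 26 interferon-stimulated genes, 3 were higher, a share near the 12.1% of all genes, 3 were lower, a share under the 30% of all genes, and 20 were not called. Without Fibroblast 1 the counts were 1 and 1, without Fibroblast 2 they were 0 and 1, and without Total tumor 2 there were 5 lower. After upper-quartile rescaling 9 were higher and 0 lower. Bst2, for example, had 255 and 188 RPKM in Fibroblast and 210.1 and 401.5 RPKM in Total tumor.

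Col1a1 was used to describe which genes followed the sorted population most closely over all 8 libraries. The 5 genes with the highest Pearson correlation of log2(RPKM + 1) with it were Col1a2 (0.996), Cthrc1 (0.996), Bgn (0.995), Mmp2 (0.994) and Fbln2 (0.993). These values describe 8 libraries in 4 groups, and all 5 genes were highest in Fibroblast. Bgn, biglycan, stood at 1198 and 1183 RPKM in Fibroblast and 64.1 and 88.1 RPKM in Total tumor (log2 3.97, adjusted p = 0.00996) and missed the threshold if Fibroblast 1 (adjusted p = 0.0656) or Fibroblast 2 (0.0691) was left out. Cthrc1, a secreted glycoprotein of matrix-producing fibroblasts, had 224 and 166 RPKM in Fibroblast and 11.5 and 14.1 RPKM in Total tumor (log2 3.82, adjusted p = 0.00616, and 0.0546 without Fibroblast 1). Fbln2 had 356 and 272 RPKM in Fibroblast and 23.9 and 13.6 RPKM in Total tumor (log2 4.03, adjusted p = 0.00174).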

How the data were processed

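RNA of whole Lewis lung carcinomas and of cells sorted from them was sequenced from oligo-dT primed cDNA (200 ng of RNA, 50 bp reads), per the labels' protocols. The deposited table holds RPKM computed by the authors for 31645 RefSeq transcripts in 8 libraries, with no counts. STAR, HOMER and mouse build mm9 are named, without versions, per the submitters' processing notes; which reads were counted, on which strand and over what total is not given in the sources used here, so genes that overlap or are antisense to each other cannot be told apart. Transcripts without a gene name (3, at most 0.00316% of a library) were left out. Each of 23952 symbols was represented by its transcript of highest average RPKM. No mm9 genome was used, so coordinates are those of the RefSeq promoter table. Transcript lengths came from a later annotation, matched by accession for 97.4% of transcripts.

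Genes with at least 1 RPKM in at least 2 libraries were tested on log2(RPKM + 1) without rescaling, a scale that understates the change of low genes. One limma fit (version 3.58.1, R 4.3.3) with a mean-variance trend covered all 8 libraries (4 groups of 2; 4 residual degrees of freedom, prior 3.62). Benjamini-Hochberg adjusted p-values under 0.05 over 13311 genes were called, and the procedure was tested on simulated data. The simulation held neither the length dependence of Total tumor 2 nor a shift over all genes, so it cannot vouch for these calls. Precision rests on 2 libraries a group. Depth was estimated from the step of the lowest values; between 57.7 and 62.3% of them lay within 0.05 of a whole read, so reads were not recovered and no count test was run.

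The comparison, members and gene lists were chosen with earlier results of these data known. Named genes are the 10 protein-coding genes with the largest called differences in each direction (at least 10 RPKM in the higher group, no overlap), the 10 masked genes highest in Fibroblast, up to 3 called members per direction and 2 not called of each list described, 9 genes named in any case (C3, Igfbp5, Sfrp4, Col1a1, Col1a2, Col3a1, Dcn, Pdgfra and Acta2), the 5 most abundant in Fibroblast and the 5 most like Col1a1. Cell type markers are named beside them, and a few genes these rules pick are not reported here. Alternatives changed the pseudocount (0.1 or 5), the filter (none, or 5 RPKM), the scaling (upper quartile, quantile) and the variance model (no trend); others used only the 4 libraries compared, the replicate number as a block, a 2-fold minimum, the mean over transcripts, a length correction, protein-coding accessions only, and each library left out. A crossed block in only the 4 libraries compared was added after the data were seen, and is set beside a same-number block in the same libraries.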

Additional observations from a re-analysis of the deposited data

How the results depend on the processing

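The count of genes higher in Fibroblast stayed within 1.5 times of 1613 in every alternative, between 1102 without Fibroblast 2 and 2243 after upper-quartile rescaling. The count of lower genes, 3988, was 1760 after upper-quartile rescaling, 2428 after quantile normalization, 2003 in a fit of only the 4 libraries, and between 1264 and 5109 with 1 library left out. Fits with fewer libraries have fewer residual degrees of freedom, and a lone library is then assumed to vary like the other groups. The 65 masked genes became 24 at a limit of 0.5 RPKM, 180 at 2 RPKM and between 55 and 197 with 1 library left out. Of the 159 named genes called, 111 kept their call in all 21 alternatives; 39 lost it without Fibroblast 2, 35 without Fibroblast 1 and 19 in the fit of only the 4 libraries. Of 245 list medians recomputed relative to all genes (35 lists under upper-quartile rescaling, quantile normalization, the length correction and each Fibroblast or Total tumor library left out), 5 changed sign: B and plasma cell genes (-0.94 as reported; -2.31 to 0.59 with 1 library left out), endothelial genes (-0.16; -0.51 to 0.34), skeletal muscle genes (-1.14; -2.30 to 0.0293), and red cell and platelet genes (0.21; -0.11 after upper-quartile rescaling and -0.14 after quantile normalization). Another filter, which changes the members tested, turned 3 list medians: at 5 RPKM the keratinocyte and epithelial list stood at -2.09 (1.11 as reported) and the endothelial list at 0.33, and with no filter the skeletal muscle list stood at 0.24. The causes were not tested. The replicate numbers are not shown to pair the samples: deviations of same-numbered Total tumor and Fibroblast libraries correlated at -0.179. They did go with depth, since replicate 1 was the deeper library in every group. With the replicate block over all 8 libraries 1516 genes were higher and 3323 lower. In fits of only the 4 libraries compared, the same-number block gave 1225 higher and 2122 lower. Crossed numbers in these 4 libraries, added after seeing the data, gave 1435 and 3094. Depth limits the masked genes, since 1 RPKM on a 2 kb transcript is between 8.55 and 20.7 reads.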
